A study of Mus musculus with 27 samples.

Results

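The genes described here are Crem, the Fos family (Fos, Fosb, Fosl1 and Fosl2), the Jun family (Jun, Junb and Jund), Atf3 and Egr1. They were taken by gene symbol, and all 10 were found among the 24825 genes of the deposited tables. Their expression was measured by sequencing of poly(A) RNA in C2C12, an established mouse myoblast line. Control cells, full-length NFIA-expressing cells and Δpro#3 mutant-expressing cells were compared. NFIA (nuclear factor I-A) is a transcription factor that promotes brown and beige adipocyte differentiation, and the mutant lacks a C-terminal stretch named pro#3. Both proteins carry a 3xFLAG tag and were introduced with a retrovirus, so the vector and not the Nfia gene sets when and how much of them is made. Each kind of cell was sampled at day 0, at day 7 of differentiation, and at day 7 following a 4 h treatment with 10 µM forskolin. There were 3 replicates per group and 9 groups. All cells of day 7, control cells included, had received the same adipogenic cocktail, which first held isobutylmethylxanthine (an inhibitor of cAMP breakdown), indomethacin and dexamethasone, and throughout held insulin, T3 and rosiglitazone. Cells without forskolin are labelled as having no treatment, and no vehicle is named. The labels do not say whether replicates were separate cultures, so that a p-value measures the spread between these samples, which may be technical.

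These genes code for transcription factors that respond within hours to signals from outside the cell. Forskolin activates adenylyl cyclase and raises cAMP, which acts through protein kinase A on CREB and its relatives at the cAMP response element (CRE). CREM is such a relative, and one of its promoters makes a short repressor (ICER) that cAMP itself induces. AP-1 is a dimer of a Jun protein with a Fos, Jun or ATF protein. Fos, Fosb and Egr1 are classical immediate early genes, Fosl1 and Fosl2 code for Fos proteins that last longer, Junb and Jund for Jun proteins that can restrain JUN, and Atf3 for a factor of stress and cAMP responses. In brown and beige fat cells, cAMP is the signal through which adrenergic stimulation acts. Values per gene cannot tell the short repressor from other forms of Crem, nor the truncated form of Fosb from the full one.

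In the annotation of the authors' genome build (NCBIM37, also called mm9), Fos lies at chr12:86814840-86818223 on the + strand, Fosb at chr7:19888070-19895394 on the - strand, Fosl1 at chr19:5447703-5455945 on the + strand and Fosl2 at chr5:32438845-32460204 on the + strand. Jun lies at chr4:94715725-94718913 on the - strand, Junb at chr8:87500811-87502617 on the - strand, Jund at chr8:73221638-73224515 on the + strand and Atf3 at chr1:192994175-193007219 on the - strand. All are annotated as protein-coding.

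Promoter sequence was matched by symbol for 7 of the 10 genes, from RefSeq on GRCm38.p6, as 250 bases before and 50 after the start site. The letters TGACG, one side of the palindromic CRE TGACGTCA, were searched on both strands (TGACG or CGTCA). They stood in the promoters of Fos, Fosb, Junb and Atf3 and not in those of Fosl2, Jun and Jund. The last 150 bases before the start site of the 4 genes are shown because they hold these matches, written 5′ to 3′ on the gene's own strand with TGACG or CGTCA in capitals. They come from chr12:85473740-85473889 (Fos, + strand), chr7:19310046-19310195 (Fosb, - strand), chr8:84978749-84978898 (Junb, - strand) and chr1:191183334-191183483 (Atf3, - strand).
Fos: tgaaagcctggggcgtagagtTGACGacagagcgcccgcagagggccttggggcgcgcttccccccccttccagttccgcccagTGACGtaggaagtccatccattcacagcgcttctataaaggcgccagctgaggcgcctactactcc
Fosb: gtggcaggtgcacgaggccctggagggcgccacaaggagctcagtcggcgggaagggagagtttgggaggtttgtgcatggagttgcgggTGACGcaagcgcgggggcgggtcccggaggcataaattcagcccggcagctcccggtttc
Junb: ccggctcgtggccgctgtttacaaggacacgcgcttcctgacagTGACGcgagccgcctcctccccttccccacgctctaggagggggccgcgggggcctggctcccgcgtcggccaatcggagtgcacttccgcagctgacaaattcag
Atf3: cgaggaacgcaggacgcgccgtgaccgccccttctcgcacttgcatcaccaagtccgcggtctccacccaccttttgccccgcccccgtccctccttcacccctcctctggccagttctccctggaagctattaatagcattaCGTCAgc

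Counted from the start site, the matches lie at -129 to -125 and -66 to -62 in Fos, at -60 to -56 in Fosb, at -106 to -102 in Junb and at -7 to -3 in Atf3. These 5 letters stood in 20.8% of the 32851 promoters of this length that were searched, so they are common. The whole CRE TGACGTCA (1.79% of promoters, each also counted among those with TGACG), the AP-1 site TGACTCA or TGAGTCA (5.2%), the CArG box of serum response factor (1.63%) and the whole palindromic NFI site (0.0365%) were in none of the 7 promoters. The NFI letters TTGGC or GCCAA, which 46.7% of promoters hold, were in those of Fos, Fosl2, Jun, Junb and Atf3. These are matches of letters within 1 window and not measured binding.

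All 10 genes were detected in all 27 samples, at very different levels. Values are FPKM as the authors gave them, fragments divided by the length of the gene's exons and by the library's fragments counted in genes. This lets levels be compared between genes per length. Fosb was the lowest, at 0.108 to 0.870 FPKM over the samples, followed by Crem at 1.42 to 6.70 FPKM and Fos at 1.47 to 8.26 FPKM. Fosl1 ranged over 6.32 to 64.9 FPKM, Fosl2 over 25.7 to 69.3 FPKM, Jun over 29.8 to 69.0 FPKM, Junb over 15.6 to 112 FPKM and Jund over 15.9 to 69.8 FPKM. Atf3 at 8.28 to 135 FPKM and Egr1 at 5.07 to 189 FPKM reached the highest levels. The highest group mean was 33.4 times the lowest for Egr1, 14.7 times for Atf3 and 8.93 times for Fosl1, and 1.92 times for Jun, the flattest of the 10.

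**Figure D1:**
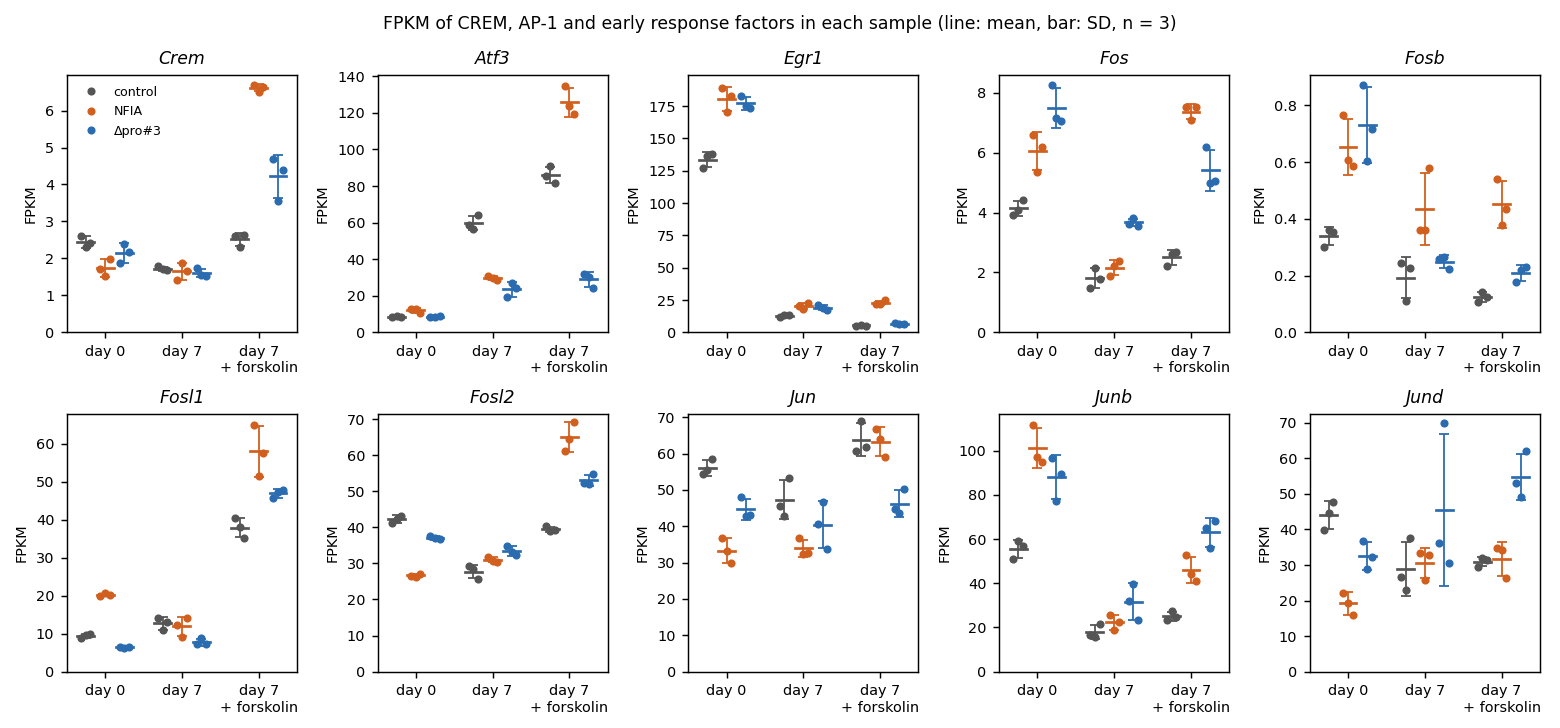
FPKM (vertical axes, a scale of its own for each gene) of the 10 genes in the 27 samples of control, NFIA and Δpro#3 mutant cells at day 0, day 7 and day 7 with forskolin. Points are samples, lines are means and bars the SD of 3 replicates. With forskolin, the 3 NFIA samples of Crem (6.51 to 6.70 FPKM) and of Atf3 (119 to 135 FPKM) lie above all others of their gene.

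The number of fragments per sample was 9567769 to 27230965, with a median of 17707223. Nfia had group means of 242 and 406 FPKM in NFIA and mutant cells at day 0, 482 and 413 FPKM at day 7 and 539 and 294 FPKM with forskolin. The samples overlapped at day 7 alone, with the mutant samples above the NFIA samples at day 0 and below them with forskolin, and the part of this in differences between them was not tested. Control samples had at most 0.879 FPKM except replicate 2 of day 0, which stood apart with 7.35 FPKM. All samples are labelled myoblasts. The 6 myotube markers (among them Myog and Acta1) summed to 8493 to 9926 FPKM in control cells at day 7, to 1600 to 2271 FPKM in NFIA cells and to 10625 to 11310 FPKM in mutant cells. The 6 adipocyte markers (among them Fabp4 and Adipoq) summed to 173 to 199, 12451 to 13854 and 356 to 1638 FPKM in the same order, and replicate 1 of the mutant cells, the highest of these 3, stood apart from the other 2. With forskolin they summed to 131 to 164, 11418 to 12196 and 130 to 443 FPKM, and 1, 2 and 5 of the 6 fell in the test described next (13.5%, 41.5% and 23.9% of all genes did). Of the macrophage markers found, Ptprc was listed at 0 in 19 samples, Csf1r reached 0.273 FPKM, Lyz2 10.3 FPKM and Cd68 26.4 FPKM. These 4 summed to 2.10 to 2.79, 12.6 to 12.7 and 8.05 to 8.37 FPKM in control, NFIA and mutant cells at day 0, to 15.3 to 15.9, 10.8 to 12.5 and 8.06 to 10.1 FPKM at day 7 and to 19.4 to 26.6, 11.3 to 13.1 and 3.89 to 11.2 FPKM with forskolin. No single one of 4 endothelial markers exceeded 1.29 FPKM (Kdr) and none of 4 epithelial markers 0.656 FPKM (Cdh1). The kinds of cells thus also differed in muscle and fat markers, and in the sum of the macrophage markers, which rests on Cd68 and Lyz2. Ptprc and Csf1r stayed near 0. The part of these marker differences in the differences below was not tested. In bulk RNA fewer cells of a type and less RNA per cell cannot be told apart.

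Forskolin raised 7 of the 9 genes tested in NFIA cells, and for 7 of the 9 the signed change lay higher there than in control cells. Among the latter was Egr1, which fell in control cells and did not pass in NFIA cells. Changes were tested with limma on log2(FPKM + 1), with Benjamini-Hochberg adjustment over all 12245 genes tested in the 18 samples of day 7. They are given as log2 change ± SE, and because 1 is added to each value the change of a gene with a low level comes out too small. Fosb, with a mean under 0.5 FPKM, was not tested. In control cells 6 genes rose (7.05% of all genes did) and 1 fell (13.5%) at an adjusted p under 0.05. In NFIA cells 7 rose (13.9%) and 0 fell (41.5%), and in mutant cells 6 rose (11.9%) and 1 fell (23.9%). With a change over 3-fold in FPKM + 1 as well, 0 genes passed in control cells (0.392% of all genes, in either direction), Fosl1 and Atf3 passed in NFIA cells (0.743%) and Fosl1 in mutant cells (0.588%). The median change of the 9 genes was 0.43, 1.04 and 0.45 in control, NFIA and mutant cells, beside -0.047, -0.15 and -0.059 over all genes tested.

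Crem, the member closest to cAMP signaling, had 1.79, 1.71 and 1.67 FPKM in untreated control cells and 2.61, 2.31 and 2.63 FPKM with forskolin. In NFIA cells it had 1.42, 1.87 and 1.66 FPKM without and 6.70, 6.51 and 6.63 FPKM with forskolin, and in mutant cells 1.74, 1.55 and 1.52 FPKM without and 4.69, 3.56 and 4.40 FPKM with it. Untreated, the 3 kinds of cells overlapped; treated, NFIA cells were above mutant cells, and those above control cells, with no overlap. The log2 change was 0.37 ± 0.08 in control cells (adjusted p = 0.0042), 1.53 ± 0.08 in NFIA cells (adjusted p = 4.1e-10) and 1.00 ± 0.08 in mutant cells (adjusted p = 1.2e-07). The response of NFIA cells exceeded that of control cells by 1.16 ± 0.12 (adjusted p = 2.3e-06), and that of mutant cells exceeded that of control cells by 0.63 ± 0.12 (adjusted p = 0.004). Mutant minus NFIA was -0.53 ± 0.12 (adjusted p = 0.0041), so each pair of the 3 responses differed. With 0.1 in place of 1 added to FPKM, the change in NFIA cells was 1.95, which passes 3-fold.

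Atf3 was the gene whose response differed most between mutant and NFIA cells. In NFIA cells it had 31.0, 29.9 and 28.8 FPKM without and 135, 124 and 119 FPKM with forskolin, a change of 2.04 ± 0.11 (adjusted p = 3.2e-10). In control cells it had 58.5, 56.6 and 64.1 FPKM without and 85.5, 90.8 and 81.7 FPKM with forskolin, a change of 0.52 ± 0.11 (adjusted p = 0.0023). Control cells were thus above NFIA cells before treatment and below them after it. In mutant cells, 19.2, 27.2 and 24.3 FPKM stood against 32.1, 30.4 and 24.3 FPKM, and the groups overlapped. The change there of 0.29 ± 0.11 (adjusted p = 0.045) was lost on leaving out 1 library, for 14 of the 18 libraries; without replicate 1 of untreated mutant cells, the library with the high adipocyte markers, it was 0.15 (adjusted p = 0.256). It was also lost with every gene kept (adjusted p = 0.0782), the compared groups alone (adjusted p = 0.167), moderation without trend (adjusted p = 0.0526) and limma-voom (adjusted p = 0.0555). NFIA cells exceeded control cells in response by 1.52 ± 0.15 (adjusted p = 2.3e-06), and mutant minus NFIA was -1.75 ± 0.15 (adjusted p = 9.5e-07).

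Egr1, a zinc finger factor of the first wave after growth factor signals, fell with forskolin in control and mutant cells. In control cells it went from 11.5, 13.3 and 13.1 FPKM to 5.25, 5.92 and 5.07 FPKM (-1.09 ± 0.09, adjusted p = 2.1e-07). In mutant cells it went from 20.9, 19.0 and 17.1 FPKM to 7.24, 6.23 and 6.77 FPKM (-1.37 ± 0.09, adjusted p = 6.4e-09). In both, every treated sample lay below every untreated one. In NFIA cells 20.3, 18.5 and 22.8 FPKM stood against 21.8, 22.2 and 24.7 FPKM, the groups overlapped, and the change of 0.16 ± 0.09 did not pass (adjusted p = 0.15). NFIA minus control was 1.24 ± 0.13 (adjusted p = 2.3e-06) and mutant minus NFIA -1.52 ± 0.13 (adjusted p = 5.8e-07), while mutant minus control, -0.28 ± 0.13, did not pass (adjusted p = 0.24).

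Within the Fos family, Fosl1 had the largest change in each kind of cell. It went from 14.2, 10.9 and 13.1 FPKM to 40.4, 38.1 and 35.2 FPKM in control cells, from 12.3, 9.25 and 14.1 FPKM to 64.9, 51.5 and 57.5 FPKM in NFIA cells and from 7.21, 8.79 and 7.32 FPKM to 45.6, 47.4 and 47.8 FPKM in mutant cells. No treated sample overlapped an untreated one of its kind. The changes were 1.51 ± 0.12, 2.21 ± 0.12 and 2.45 ± 0.12 (adjusted p = 2.3e-07, 6.1e-10 and 2.6e-10). Both NFIA and the mutant went with a larger response than control cells, by 0.70 ± 0.17 (adjusted p = 0.0066) and 0.95 ± 0.17 (adjusted p = 0.0041). The 2 did not differ at the threshold (0.25 ± 0.17, adjusted p = 0.34).

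Fos, the partner that gives the family its name, had low levels. In control cells it had 1.47, 2.16 and 1.79 FPKM without and 2.22, 2.62 and 2.67 FPKM with forskolin, a change of 0.32 ± 0.09 (adjusted p = 0.021) that was lost without untreated replicate 1 or 3 or treated replicate 2 or 3 (adjusted p = 0.0519 to 0.121), with the compared groups alone (adjusted p = 0.0528) and with limma-voom (adjusted p = 0.0551). In NFIA cells it rose from 1.90, 2.20 and 2.38 FPKM to 7.52, 7.07 and 7.51 FPKM, by 1.41 ± 0.09 (adjusted p = 4.5e-09). In mutant cells it rose from 3.63, 3.81 and 3.56 FPKM to 6.20, 4.99 and 5.04 FPKM, by 0.45 ± 0.09 (adjusted p = 0.0013). Mutant cells thus were above NFIA cells untreated and below them treated, with no overlap either time. NFIA minus control was 1.08 ± 0.13 (adjusted p = 1.5e-05) and mutant minus NFIA -0.95 ± 0.13 (adjusted p = 9.7e-05).

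Fosl2, the most abundant Fos gene without treatment, went from 29.2, 28.4 and 25.7 FPKM to 40.2, 38.9 and 39.2 FPKM in control cells, from 31.7, 30.8 and 30.5 FPKM to 61.0, 64.5 and 69.3 FPKM in NFIA cells and from 34.9, 33.2 and 32.3 FPKM to 52.3, 52.0 and 54.9 FPKM in mutant cells. The treated samples lay above the untreated ones in each. The changes were 0.49 ± 0.05, 1.04 ± 0.05 and 0.65 ± 0.05 (adjusted p = 5.9e-06, 3.1e-10 and 1.5e-07). Its response too was larger in NFIA than in control cells (0.55 ± 0.08, adjusted p = 6.4e-05) and smaller in mutant than in NFIA cells (-0.39 ± 0.08, adjusted p = 0.0019). Fosb rested on 25 to 80 fragments per group of day 7, all 3 samples summed.

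Of the Jun family, Junb rose in NFIA and mutant cells. It had 16.7, 15.6 and 21.8 FPKM in untreated and 23.3, 27.2 and 24.9 FPKM in treated control cells, a change of 0.47 ± 0.16 that did not pass (adjusted p = 0.052). It rose in NFIA cells from 25.7, 18.8 and 22.6 FPKM to 52.7, 44.4 and 41.2 FPKM (1.01 ± 0.16, adjusted p = 7.1e-05). It rose in mutant cells from 31.8, 39.8 and 23.3 FPKM to 65.0, 55.8 and 68.1 FPKM (1.00 ± 0.16, adjusted p = 0.00018). Treated and untreated samples did not overlap in any of the 3, and none of the differences between these responses passed (adjusted p = 0.087, 0.22 and 0.97).

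Jun itself had 45.6, 42.9 and 53.3 FPKM in untreated and 60.8, 69.0 and 61.7 FPKM in treated control cells (0.43 ± 0.10, adjusted p = 0.0065). In NFIA cells it had 36.7, 32.3 and 32.7 FPKM and 66.9, 63.9 and 59.2 FPKM (0.88 ± 0.10, adjusted p = 2.5e-06), so that NFIA cells, lower before, overlapped control cells after treatment. In mutant cells the change of 0.20 ± 0.10 did not pass (adjusted p = 0.14). NFIA minus control was 0.45 ± 0.15 (adjusted p = 0.027), lost without untreated control replicate 3, untreated NFIA replicate 2 or 3, treated control replicate 1 or 3 or treated NFIA replicate 1 (adjusted p = 0.0544 to 0.0723). Mutant minus NFIA was -0.68 ± 0.15 (adjusted p = 0.0031). Jund changed by 0.12 ± 0.23, 0.05 ± 0.23 and 0.35 ± 0.23 and passed in no kind of cell (adjusted p = 0.78, 0.88 and 0.25). Its untreated mutant samples had 36.2, 69.8 and 30.4 FPKM, of which replicate 2 stood apart.

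**Figure D2:**
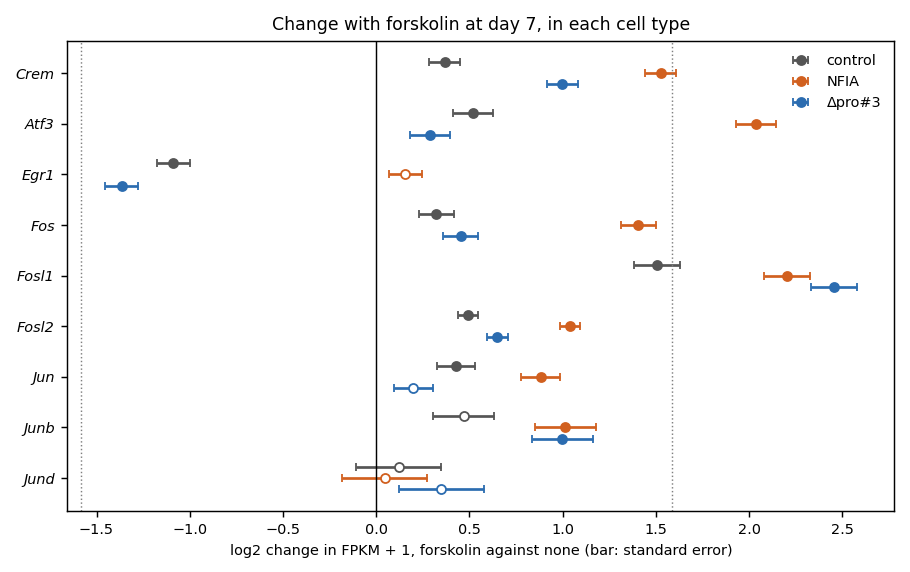
Log2 change in FPKM + 1 with forskolin at day 7 of the 9 genes tested, in control, NFIA and Δpro#3 mutant cells, with bars for the SE. Filled points have an adjusted p under 0.05, open ones do not, and dotted lines mark 3-fold. Atf3 and Fosl1 in NFIA cells (2.04 and 2.21) and Fosl1 in mutant cells (2.45) lie beyond it, and Egr1 lies below 0 in control and mutant cells.

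In all, the signed change lay higher in NFIA than in control cells for 7 of 9 genes (9.16% of all genes). It lay lower for 0 (21.5%), and 0 passed 3-fold (0.572%). For Egr1 this was a fall in control cells without a passing change in NFIA cells. The change lay higher in mutant than in control cells for 2, Crem and Fosl1 (2.47%), and lower for 0 (2.5%), and 0 passed 3-fold (0.212%). It lay higher in mutant than in NFIA cells for 0 (15.8%) and lower for 6 (5.88%), of which Atf3 passed 3-fold (0.367%). These 6 were Crem, Fos, Fosl2, Jun, Atf3 and Egr1, and Egr1 fell in mutant cells without a passing change in NFIA cells. These comparisons share samples.

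Other genes of these pathways were read from lists. Of 18 genes known to respond to cAMP, all tested, 15 rose with forskolin in control cells, 17 in NFIA cells and 16 in mutant cells, and 0 fell in any of them. Of all genes tested, 7.05%, 13.9% and 11.9% rose and 13.5%, 41.5% and 23.9% fell in the same order. The median changes of the cAMP-responsive genes were 0.66, 1.40 and 0.86. Pde4b, a phosphodiesterase that breaks down cAMP, passed 3-fold in each, with 1.97 ± 0.07, 2.20 ± 0.07 and 1.86 ± 0.07 (adjusted p = 1.8e-11, 9.5e-13 and 1.6e-11). Nr4a3, an orphan nuclear receptor, went from 1.17 ± 0.145 to 48.4 ± 2.42 FPKM in NFIA cells and from 5.15 ± 0.434 to 10.9 ± 1.21 FPKM in control cells (SD, n = 3). Its response differed by 3.56 ± 0.14 (adjusted p = 6.2e-11). Of the 12 genes of the cAMP and CREB machinery, such as Creb1 and its coactivators, 1 rose and 1 fell in control cells, 1 and 6 in NFIA cells and 1 and 3 in mutant cells. Of all genes tested 13.5%, 41.5% and 23.9% fell, so 6 of 12 in NFIA cells and 3 of 12 in mutant cells lie near the general share.

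Of 13 bZIP factors that pair or compete with AP-1 proteins, 9 were tested. With forskolin 3 rose and 3 fell in control cells, 3 and 3 in NFIA cells and 4 and 1 in mutant cells, where 7.05%, 13.9% and 11.9% of all genes rose and 13.5%, 41.5% and 23.9% fell. Maff, a small MAF protein, rose from 11.9 ± 0.916 to 55.0 ± 1.89 FPKM in NFIA cells (SD, n = 3), by 2.12 ± 0.09 (adjusted p = 2.6e-11), and by 0.70 ± 0.09 and 1.07 ± 0.09 in control and mutant cells (adjusted p = 3.2e-05 and 1.5e-07). Of 31 other immediate early genes, 29 were tested, and 7 rose and 6 fell in control cells, 17 and 4 in NFIA cells and 12 and 5 in mutant cells, beside the same shares of all genes. Ctgf, a matricellular protein, fell in each, with -3.11 ± 0.11, -2.11 ± 0.11 and -3.07 ± 0.11 (adjusted p = 1.3e-11, 2.8e-10 and 5.6e-12). Its relative Cyr61 fell in control and mutant cells (-2.28 ± 0.11 and -1.46 ± 0.11, adjusted p = 3.2e-10 and 3.2e-08) and rose in NFIA cells (1.05 ± 0.11, adjusted p = 6.3e-07).

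Of 17 genes known as AP-1 targets, 13 were tested, and 4 rose and 5 fell in control cells, 7 and 1 in NFIA cells and 6 and 2 in mutant cells. Without Il6, 3 of 12 rose and 5 fell in control cells, 6 and 1 in NFIA cells and 5 and 2 in mutant cells. Of all genes tested, 7.05%, 13.9% and 11.9% rose and 13.5%, 41.5% and 23.9% fell, and counts of genes that fell cannot be compared between kinds of cells without these shares. Il6, a cytokine, went from 0.308 to 5.87 FPKM, from 0.113 to 3.66 FPKM and from 0.711 to 12.1 FPKM in group mean. The untreated samples average under the minimum of 0.5 FPKM, so Il6 was tested through the treated samples where it is high and its levels are given as a description. Plaur, the urokinase receptor, rose by 1.79 ± 0.15, 1.58 ± 0.15 and 2.16 ± 0.15 (adjusted p = 2.3e-07, 2.0e-07 and 1.1e-08). The NFIA minus control difference in its response was -0.20 ± 0.21 and did not pass (adjusted p = 0.5). Of 14 genes of the integrated stress response and heat shock, to which Atf3 is linked, 13 were tested, and 2 rose and 0 fell in control cells, 6 and 0 in NFIA cells and 3 and 1 in mutant cells, beside the same shares of all genes.

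Before differentiation, at day 0, Fosl1 was higher in NFIA cells and lower in mutant cells than in control cells. It had 8.90, 9.56 and 9.87 FPKM in control cells, between 20 and 20.6 FPKM in NFIA cells and 6.56, 6.32 and 6.61 FPKM in mutant cells, with no overlap. The changes against control cells were 1.03 ± 0.04 (adjusted p = 1.8e-09) and -0.48 ± 0.04 (adjusted p = 2.0e-06). In NFIA cells 6 of the 10 genes were higher (37.7% of the 12105 genes tested; 5 of 9 without Fosb) and 4 lower (35.6%). In mutant cells 4 were higher (32.5%; 3 of 9 without Fosb) and 4 lower (29.7%), and against NFIA cells 5 were higher (33.4%) and 2 lower (31.9%). None passed 3-fold in these 3 comparisons (5.24%, 2.18% and 2.05% of all genes).

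Junb and the other Jun genes went opposite ways at day 0. Junb had 51.0, 58.9 and 57.0 FPKM in control cells, 112, 97.0 and 95.0 FPKM in NFIA cells and 96.8, 77.2 and 89.6 FPKM in mutant cells, changes of 0.85 ± 0.09 and 0.65 ± 0.09 (adjusted p = 5.7e-06 and 8.3e-05). Jund had 40.0, 44.7 and 47.8 FPKM, 22.2, 19.4 and 15.9 FPKM and 36.7, 28.8 and 32.3 FPKM in the same order, changes of -1.17 ± 0.12 and -0.43 ± 0.12 (adjusted p = 4.2e-06 and 0.0081). Both NFIA and mutant cells thus had more Junb and less Jund than control cells, without overlap, and NFIA cells the least Jund. Jun was lower in both as well, by -0.74 ± 0.07 and -0.32 ± 0.07 (adjusted p = 2.5e-06 and 0.002). Of the Fos family, Fosl2 was lower (-0.64 ± 0.03 and -0.18 ± 0.03, adjusted p = 5.7e-09 and 0.00027). Fos was higher (0.45 ± 0.08 and 0.72 ± 0.08, adjusted p = 0.00027 and 1.2e-05), and Fosb had 0.339 ± 0.0325, 0.653 ± 0.0977 and 0.730 ± 0.134 FPKM (SD, n = 3). Fosb reached the minimum mean of 0.5 FPKM through NFIA and mutant cells alone, so its calls against control cells are not counted as support.

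Egr1 was higher than in control cells in both at day 0, by 0.43 ± 0.05 and 0.40 ± 0.05 (adjusted p = 6.6e-06 and 1.9e-05). Atf3 was higher in NFIA cells (0.44 ± 0.06, adjusted p = 9.6e-05) and did not pass in mutant cells (-0.00 ± 0.06, adjusted p = 0.98), and mutant minus NFIA was -0.44 ± 0.06 (adjusted p = 0.00012). Crem was lower in NFIA cells (-0.33 ± 0.08, adjusted p = 0.0035) and did not pass in mutant cells (-0.13 ± 0.08, adjusted p = 0.18). The difference of Crem between mutant and NFIA cells (0.20 ± 0.08, adjusted p = 0.049998) was lost without any of 7 of the 9 libraries (adjusted p = 0.0575 to 0.178), with 0.1 added (adjusted p = 0.0515), with every gene kept (adjusted p = 0.0868) and with the compared groups alone (adjusted p = 0.0800).

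At day 7 without forskolin, Atf3 was lower and Egr1 higher in both NFIA and mutant cells than in control cells, by -0.97 ± 0.11 and -1.32 ± 0.11 for Atf3 (adjusted p = 1.4e-05 and 9.6e-06) and 0.66 ± 0.09 and 0.55 ± 0.09 for Egr1 (adjusted p = 0.00011 and 0.00094). The samples of Atf3 and Egr1 given above for this day did not overlap with those of control cells. In mutant cells Fos (0.74 ± 0.10, adjusted p = 0.00022) and Junb (0.76 ± 0.19, adjusted p = 0.0073) were higher and Fosl1 lower (-0.64 ± 0.14, adjusted p = 0.0042). Jun was lower in NFIA cells (-0.46 ± 0.11, adjusted p = 0.0042). Fosl2 was higher in mutant cells (0.26 ± 0.06, adjusted p = 0.0041) and in NFIA cells (0.16 ± 0.06, adjusted p = 0.032), where this was lost without control replicate 3 or any 1 NFIA replicate (adjusted p = 0.0543 to 0.119). Crem did not pass in either (adjusted p = 0.67 and 0.54).

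Of the 9 genes, 2 were higher (31.3% of the 12324 genes tested) and 2 lower (41.1%) in NFIA than in control cells at day 7. In mutant cells 4 were higher (21.3%) and 2 lower (27.5%) than in control cells, and 1 higher (34.3%) and 2 lower (29.4%) than in NFIA cells. The latter were Fos (0.56 ± 0.10, adjusted p = 0.00062), which was higher, and Fosl1 (-0.54 ± 0.14, adjusted p = 0.0071) and Atf3 (-0.34 ± 0.11, adjusted p = 0.016), which were lower. None passed 3-fold (8.17%, 1.44% and 6.3% of all genes). Beside the lower Atf3, 11 of 13 stress and heat shock genes were lower and 1 higher in mutant than in NFIA cells (median log2 difference -0.70, against 0.035 over all genes tested). Against control cells, where Atf3 was lower in both, 6 were higher and 1 lower in NFIA cells (median log2 difference 0.30, against -0.08 over all genes tested), and 1 higher and 10 lower in mutant cells (median log2 difference -0.45, against -0.037 over all genes tested).

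After forskolin, Egr1 was the gene with the largest difference between NFIA and control cells, 1.90 ± 0.08 (adjusted p = 3.5e-09), and the 1 that passed 3-fold (8.02% of the 12121 genes tested). Of the 9 genes, 7 were higher in NFIA than in control cells (25.5%) and 0 lower (47%). In mutant cells 7 were higher (19.5%) and 2 lower (27.1%) than in control cells, and 0 passed 3-fold (1.55%). The lower ones were Atf3 (-1.55 ± 0.09, adjusted p = 5.9e-07) and Jun (-0.46 ± 0.07, adjusted p = 0.00054), and the largest rise was that of Junb (1.29 ± 0.10, adjusted p = 3.5e-06). The difference of Egr1 in mutant cells (0.27 ± 0.08, adjusted p = 0.015) was lost without control replicate 1 or 3 or mutant replicate 1 (adjusted p = 0.0503 to 0.0587).

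Compared directly with forskolin, with Nfia at 294 FPKM in mutant and 539 FPKM in NFIA cells, 2 genes were higher in mutant than in NFIA cells (42%) and 7 lower (24.2%). Atf3 (-2.09 ± 0.09, adjusted p = 1.1e-08) and Egr1 (-1.63 ± 0.08, adjusted p = 1.6e-08) were lower and passed 3-fold (6.2% of all genes), Egr1 only with NFIA replicate 3 and mutant replicate 2 both kept. The higher ones were Junb (0.44 ± 0.10, adjusted p = 0.0025) and Jund (0.77 ± 0.11, adjusted p = 9.5e-05), the Jun proteins that can restrain JUN. Jund had 29.5, 32.1 and 31.3 FPKM in treated control cells, 34.8, 34.1 and 26.3 FPKM in NFIA cells and 53.2, 49.2 and 62.0 FPKM in mutant cells, and the mutant samples lay above all the others. Of the stress and heat shock genes tested with forskolin, 1 was higher and 12 of 13 lower in mutant than in NFIA cells (median log2 difference -0.99, against 0.12 over all genes tested), as Atf3 was. Against control cells 9 of 13 were higher in NFIA cells (25.5% of all genes; median log2 difference 0.49, against -0.17 over all genes tested), and 1 higher (19.5%) and 9 lower (27.1%) in mutant cells (median log2 difference -0.45, against -0.041 over all genes tested). The part of these genes in the differences of Atf3 was not tested.

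**Figure D3:**
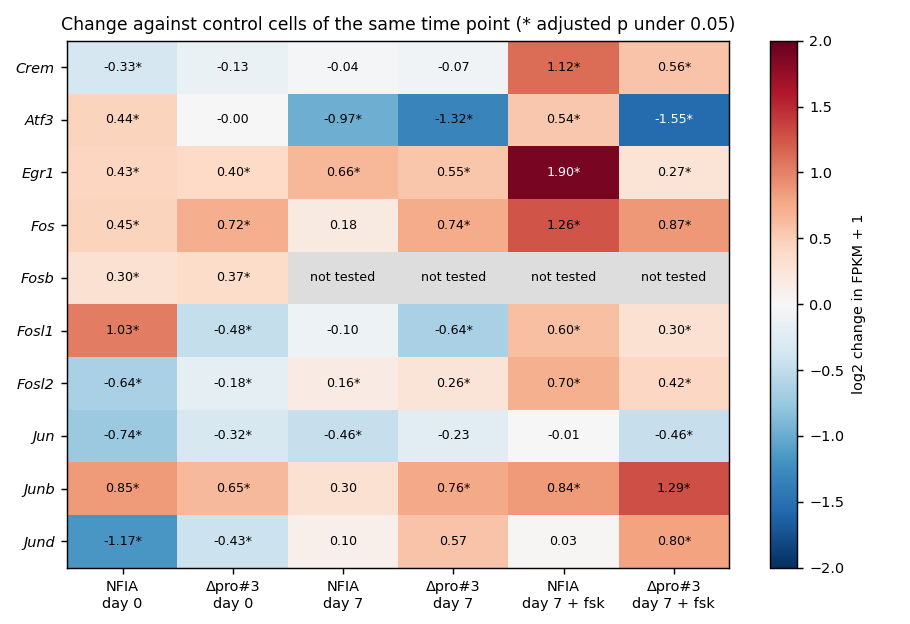
Log2 change in FPKM + 1 (colour and printed value) of the 10 genes in NFIA and Δpro#3 mutant cells against control cells at day 0, day 7 and day 7 with forskolin (fsk), with a star at an adjusted p under 0.05. Fosb entered at day 0 through NFIA and mutant cells alone. Fosl1 at day 0 has opposite signs in NFIA and mutant cells against control cells (1.03 and -0.48), as does Atf3 with forskolin (0.54 and -1.55).

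From day 0 to day 7, Egr1 fell and Atf3 rose in each kind of cell. Egr1 went from 127, 136 and 138 FPKM to 11.5, 13.3 and 13.1 FPKM in control cells, from 189, 170 and 183 FPKM to 20.3, 18.5 and 22.8 FPKM in NFIA cells and from 183, 175 and 173 FPKM to 20.9, 19.0 and 17.1 FPKM in mutant cells. The changes were -3.31 ± 0.08, -3.08 ± 0.08 and -3.16 ± 0.08 (adjusted p = 8.3e-16, 1.0e-15 and 1.0e-15), and the differences between them did not pass (adjusted p = 0.073, 0.29 and 0.54). Atf3 went from 8.66, 8.75 and 8.28 FPKM to the values given above, a change of 2.66 ± 0.09 in control cells (adjusted p = 1.5e-13). From 12.6, 12.9 and 10.6 FPKM in NFIA cells and 8.32, 8.36 and 9.0 FPKM in mutant cells it rose by 1.25 ± 0.09 and 1.35 ± 0.09 (adjusted p = 1.9e-09 and 8.5e-10). These rises were smaller than that of control cells, by differences of -1.41 ± 0.13 and -1.31 ± 0.13 (adjusted p = 7.0e-08 and 6.9e-07).

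Junb fell with differentiation, by -1.59 ± 0.16, -2.14 ± 0.16 and -1.47 ± 0.16 in control, NFIA and mutant cells (adjusted p = 9.5e-08, 1.9e-09 and 2.6e-07), and Fos by -0.88 ± 0.09, -1.16 ± 0.09 and -0.86 ± 0.09 (adjusted p = 1.2e-07, 3.2e-09 and 1.6e-07). Fosl1 rose in control cells (0.39 ± 0.11, adjusted p = 0.0047) and fell in NFIA cells (-0.74 ± 0.11, adjusted p = 1.3e-05), a difference of -1.13 ± 0.16 (adjusted p = 8.2e-06). Fosl2 did the reverse, falling in control cells (-0.59 ± 0.04, adjusted p = 1.9e-09) and rising in NFIA cells (0.21 ± 0.04, adjusted p = 0.00034), a difference of 0.80 ± 0.06 (adjusted p = 6.8e-09). In mutant cells Fosl2 fell by -0.14 ± 0.04 (adjusted p = 0.0066), which was lost with median-ratio scaling (-0.02, adjusted p = 0.743). Crem fell in control and mutant cells (-0.34 ± 0.08 and -0.27 ± 0.08, adjusted p = 0.0011 and 0.0054) and did not pass in NFIA cells (-0.05 ± 0.08, adjusted p = 0.59). In control cells, Jun (-0.25 ± 0.10, adjusted p = 0.036) and Jund (-0.62 ± 0.23, adjusted p = 0.023) fell, and each call was lost without replicate 2 or 3 of day 0 or 1 or 2 of day 7 (adjusted p = 0.0618 to 0.149 and adjusted p = 0.0521 to 0.107). Jun was lost as well with median-ratio scaling (-0.18, adjusted p = 0.120) and with every gene kept (adjusted p = 0.0620). Jund rose in NFIA cells (0.65 ± 0.23, adjusted p = 0.017), which was lost without replicate 3 of day 0 or 1 or 3 of day 7 (adjusted p = 0.0515 to 0.0743).

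Of the 9 genes, 2 rose (36% of the 12408 genes tested) and 7 fell (42.7%) in control cells, 3 (33.2%) and 4 (46.5%) in NFIA cells and 1 (32.8%) and 5 (46.7%), Fosl2 included, in mutant cells. Atf3, Junb and Egr1 passed 3-fold in control cells (6.7%), Junb and Egr1 in NFIA cells (10.1%) and Egr1 in mutant cells (6.84%). Junb in control cells lies at the 3-fold line and was under it with median-ratio scaling. The change lay higher in NFIA than in control cells for 3 genes (31.1%) and lower for 3 (40.1%), with 0 past 3-fold (7.62%). It lay higher in mutant than in control cells for 2 (18.9%) and lower for 1 (25.9%), with 0 past 3-fold (2.36%), and higher in mutant than in NFIA cells for 2 (33.9%) and lower for 1 (29.5%), with 0 past 3-fold (5.4%). Beside these shares, of the other immediate early genes 7 rose and 21 fell in control cells among 31 tested, 6 and 22 in NFIA cells and 6 and 20 in mutant cells. Without Egr3, which reached the minimum of 0.5 FPKM through the day 0 samples alone, 20, 21 and 19 of 30 fell. Of the stress genes, 11, 11 and 9 of 14 rose in the same order.

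**Figure D4:**
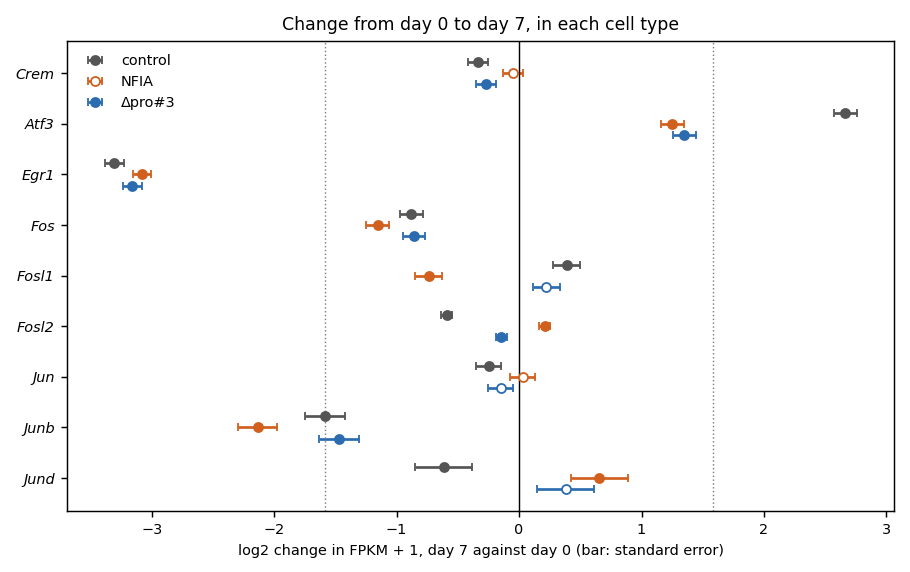
Log2 change in FPKM + 1 from day 0 to day 7 of the 9 genes tested, in control, NFIA and Δpro#3 mutant cells, with bars for the SE. Filled points have an adjusted p under 0.05, open ones do not, and dotted lines mark 3-fold. Egr1 lies at -3.31, -3.08 and -3.16, and Atf3 at 2.66 in control cells against 1.25 and 1.35 in the others.

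As a family, the 4 Fos genes had summed levels that lay closer together in the 3 kinds of cells without forskolin than with it. The sums in control, NFIA and mutant cells were 56.1 ± 1.83, 53.6 ± 0.703 and 51.8 ± 1.35 FPKM at day 0 and 42.5 ± 2.30, 45.5 ± 2.61 and 45.1 ± 1.52 FPKM at day 7 (SD, n = 3). With forskolin they were 80.0 ± 2.84, 131 ± 6.31 and 106 ± 2.01 FPKM, and no samples of different kinds of cells overlapped. The make-up of the sum differed at day 0, when Fosl1 gave 16.8% ± 0.348, 37.8% ± 1.09 and 12.5% ± 0.353 of it. At day 7 Fosl1 gave 29.9% ± 3.22, 26.0% ± 4.00 and 17.2% ± 1.74, with mutant samples under the others, and with forskolin it gave 47.4% ± 1.58, 44.3% ± 3.65 and 44.4% ± 0.794. Fos itself gave at most 15.5% in any sample. Of the summed FPKM of the 3 Jun genes, Junb gave 35.7% ± 1.20, 65.9% ± 1.41 and 53.2% ± 1.22 at day 0, 19.1% ± 0.290, 25.6% ± 1.22 and 27.1% ± 1.92 at day 7 and 20.9% ± 0.411, 32.6% ± 1.48 and 38.4% ± 1.32 with forskolin. Jun gave 53.2% ± 0.769, 45.0% ± 1.69 and 28.2% ± 1.01 with forskolin. These sums and shares carry no test.

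**Figure D5:**
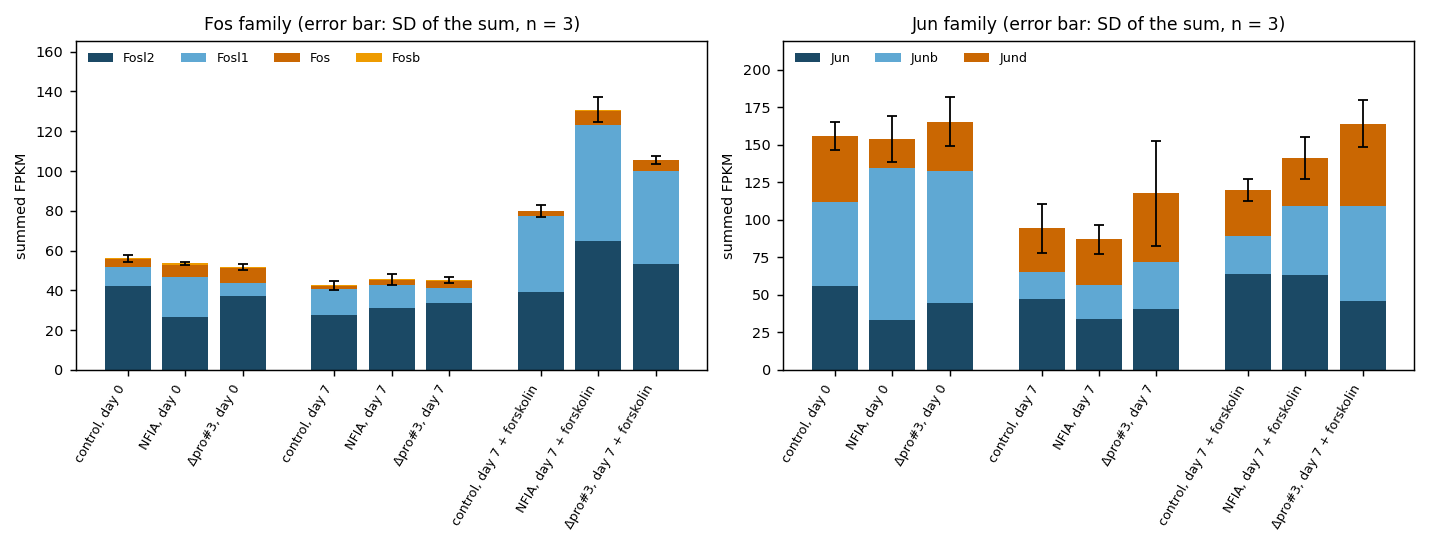
Mean FPKM of the Fos and Jun genes, stacked for each of the 9 groups on an axis from 0, with the SD of the sum over 3 replicates as error bars. The Fos sum with forskolin is 80.0 ± 2.84 FPKM in control and 131 ± 6.31 FPKM in NFIA cells, and Junb fills 65.9% ± 1.41 of the Jun sum in NFIA cells at day 0.

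Ranked by group mean, NFIA cells with forskolin were the highest group for Crem, Fosl1, Fosl2 and Atf3, NFIA cells of day 0 for Junb and Egr1, and mutant cells of day 0 for Fos and Fosb. Control cells with forskolin were the highest for Jun and mutant cells with forskolin for Jund. Of the 8 pairs of neighbours in a ranking, the samples overlapped in 1 for Fosl2, 2 for Fosl1, 3 for Atf3, 3 for Egr1 and 4 for Fos. For Crem, Fosb, Jun, Junb and Jund they overlapped in 6 of 8. Neighbours are the closest means by the sorting itself, which favours overlap, so an overlap does not show that groups are alike. For Crem, neighbours overlapped throughout the 7 groups after NFIA and mutant cells with forskolin. These run from 2.52 FPKM in control cells with forskolin down to 1.60 FPKM in untreated mutant cells of day 7. Some groups further apart in this series did differ. Control cells of day 7 with and without forskolin did not overlap (limma, adjusted p = 0.0042), nor did untreated control cells of day 0 and day 7 (adjusted p = 0.0011).

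The genes whose pattern over the 9 group means of log2(FPKM + 1) was most like that of each gene were sought among 6420 genes. The groups share cells and time points, and the values of Pearson's r are descriptions. Those for Fosb rest on 25 to 198 fragments per group. For Crem they were Galnt11 (r = 0.973) and Nus1 (r = 0.946), for Atf3 1810032O08Rik (r = 0.976) and Slc3a2 (r = 0.976), and for Egr1 Commd10 (r = 0.990) and Wdr1 (r = 0.984). For Fosl1 they were Tubb2a (r = 0.929) and Piga (r = 0.912), for Fosl2 Arpc3 (r = 0.927) and again Galnt11 (r = 0.921), for Fos Dlx3 (r = 0.944) and Mir7014 (r = 0.934) and for Fosb Kctd1 (r = 0.979) and Alpk1 (r = 0.978). For Junb they were Fam126a (r = 0.962) and Atp8b2 (r = 0.952), for Jund Pcdh1 (r = 0.968) and Pfkp (r = 0.926), and for Jun Rab20 (r = 0.880) and Snord69 (r = 0.873). Among the 10 genes themselves, the pairs most alike were Crem with Fosl2 (r = 0.945) and Fos with Junb (r = 0.887), and the pair most opposed was Atf3 with Egr1 (r = -0.780).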

How the data were processed

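The authors sequenced stranded poly(A) libraries, aligned reads to mm9 with STAR 2.5.3a, took the uniquely mapped reads on a gene's own strand, and deposited 1 FPKM value per gene and sample; no step that scales samples to each other is named. The values are whole multiples of 1 fragment (100% of values, within 0.05), so fragments per gene were recovered for the depth and for limma-voom, an alternative. Replicates differed by 1.55 to 15.0 in chi-squared per gene over 27 pairs.

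With R 4.3.3 and limma 3.58.1, log2(FPKM + 1) of genes with a mean of 0.5 FPKM or more was fitted with trended moderation, in 9 samples for comparisons at 1 time point and in 18 for responses and their differences. Groups came from the labels. In simulated data for NFIA against control cells at day 0 (12115 genes), 200 genes were changed, all by folds beyond 3-fold. Of these, 88% passed both thresholds, with 0 false calls. All other genes were left unchanged there, and the spread between replicates was set and not taken from these data. The result therefore does not carry over to changes under 3-fold or to the error rate in these data. Plots used Python 3.11.15 and matplotlib 3.10.9.

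All 10 genes are named. Like genes are the 2 with the highest r, among genes with a mean of 1 FPKM or more that span 1 or more on the log2 scale. From each list, the gene past 3-fold with the largest rise or fall in a comparison could be named, of which the text names fewer; Cyr61 and Plaur were added after their values were seen. The genes and lists were chosen with earlier results of these data known.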

Additional observations from a re-analysis of the deposited data

Results flagged for a closer look

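In limma's test of the difference itself (adjusted p under 0.05), the forskolin response of these genes differed between kinds of cells as follows, on the log2 scale. NFIA minus control was 1.16 for Crem, 1.08 for Fos, 0.70 for Fosl1, 0.55 for Fosl2, 0.45 for Jun, 1.52 for Atf3 and 1.24 for Egr1. Mutant minus control was 0.63 for Crem and 0.95 for Fosl1. Mutant minus NFIA was -0.53 for Crem, -0.95 for Fos, -0.39 for Fosl2, -0.68 for Jun, -1.75 for Atf3 and -1.52 for Egr1.

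The change from day 0 to day 7 differed by the same test. NFIA minus control was 0.29 for Crem, -1.13 for Fosl1, 0.80 for Fosl2, -0.55 for Junb, 1.27 for Jund and -1.41 for Atf3. Mutant minus control was 0.45 for Fosl2, 1.00 for Jund and -1.31 for Atf3. Mutant minus NFIA was 0.96 for Fosl1, -0.36 for Fosl2 and 0.66 for Junb. Of these, Crem and Junb of NFIA minus control were lost without any 1 of 7 and 6 libraries (adjusted p = 0.0506 to 0.0915 and adjusted p = 0.0538 to 0.115). Jund of mutant minus control was lost without mutant replicate 2 of day 0 or control replicate 2 of day 7 (adjusted p = 0.0520 to 0.0583), and Junb of mutant minus NFIA without replicate 2 of either at day 7 (adjusted p = 0.0510 to 0.0524).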

How the results depend on the processing

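The 133 changes of these genes with an adjusted p under 0.05 were recomputed under 8 alternatives (0.1 added to FPKM, median-ratio scaling, every gene kept, a mean of at least 5 FPKM, the compared groups alone, moderation without trend, replicate number as a block, and limma-voom on fragments). Of 1037 values, 1020 kept their direction and side of the threshold, 17 lost the threshold and 0 reversed. Leaving out each sample in turn, 1760 of 1827 kept both, 67 lost the threshold and 0 reversed. Atf3 between mutant and NFIA cells at day 7 was lost without NFIA replicate 1 (adjusted p = 0.0508). The number of genes past 3-fold moved by over 1.5 times in 10 of 168 values. With 0.1 added it was 1 for mutant against NFIA at day 0 (Fosl1), 4 for forskolin in NFIA cells (Crem and Fos joined) and 2 for the mutant minus NFIA response (Egr1 joined). With scaling it was 1 for the NFIA minus control response (Atf3) and 2 for mutant minus NFIA. With limma-voom it was 1 for mutant against NFIA at day 0 (Fosl1), 1 for mutant against control with forskolin (Atf3), 1 for forskolin in control cells (Fosl1), 4 for forskolin in NFIA cells and 2 for the mutant minus NFIA response. The cause was not tested.

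Leaving out single samples, the number ranged from 1 to 2 for mutant against NFIA with forskolin (1 without NFIA replicate 3 or mutant replicate 2) and from 0 to 1 for mutant against control with forskolin (1, Atf3, without mutant replicate 1 or 2). It ranged from 0 to 1 for forskolin in control cells (1, Fosl1, without untreated replicate 1), from 2 to 3 for forskolin in NFIA cells, and from 1 to 2 for the mutant minus NFIA response (2 without untreated replicate 3 of either). For the change from day 0 to day 7 it was 2 to 3 in control cells (2, Junb lost, without replicate 2 or 3 of day 0 or 1 or 2 of day 7) and 1 to 2 in mutant cells (2, Junb added, without replicate 2 of day 7).

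Scaling moved the median of all genes from -0.17 to -0.0066 for NFIA against control with forskolin, from 0.12 to 0.0066 for mutant against NFIA with forskolin, from -0.15 to -0.041 for forskolin in NFIA cells, from -0.10 to -0.032 for the NFIA minus control response, and from -0.11 to 0.016 and -0.00080 for day 7 against day 0 in NFIA and mutant cells. With it, Fosl2 in the last of these went from -0.14 (adjusted p = 0.0066) to -0.02 (adjusted p = 0.743), and Junb in the day 0 to day 7 difference of NFIA minus control to -0.47 (adjusted p = 0.0806; with every gene kept adjusted p = 0.0692). Samples with the same replicate number deviated together in some pairs and apart in others (correlations from -0.185 to 0.358, with means over pairs of -0.031 to 0.018), so the numbers were not taken to pair them. As a block it moved no count past 3-fold, and lost Crem between mutant and NFIA cells at day 0 (0.20, with the block adjusted p = 0.0696), Atf3 with forskolin in mutant cells (adjusted p = 0.0513) and Junb in the day 0 to day 7 difference of NFIA minus control (adjusted p = 0.0505). Depth limits Fosb, with 25 to 198 fragments per group.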
